A study of Homo sapiens with 4 samples.

Results

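10 genes that B cells use to be activated and to costimulate T cells were examined for the binding and the loops of cohesin and CTCF: CD80, CD86, CD40, CD58, ICAM1, SLAMF1, FCER2, CD70, CD27 and CD83. They are 10 of 19970 protein-coding genes of GENCODE release 44 on chromosomes 1 to 22 and X, taken by name and not by a rule on any measured value. Earlier results of these data were known when they were chosen. A peak was assigned to a gene when its summit lay in the gene body or within 50 kb of the gene start, and a loop when an anchor of 5 kb lay within 5 kb of one of the gene's transcript starts. These rules gave 160 of 96855 SMC1 peaks, 72 of 62869 CTCF peaks, 52 of 28012 loops in the list labelled SMC1, with 101 of 80487 loops in that labelled CTCF.

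The data are HiChIP of HG00731, an established lymphoblastoid cell line (LCL), which is a B cell culture immortalized by Epstein-Barr virus. HiChIP joins DNA ends that are close in the nucleus and then enriches one protein by immunoprecipitation, so that the reads give both binding peaks and loops. Chromatin for SMC1, a subunit of cohesin, was cross-linked with formaldehyde and ethylene glycol bis(succinimidyl succinate) (FA-EGS), and chromatin for CTCF with formaldehyde alone, with 2 biological replicates each. The replicates were pooled before peaks and loops were called, so that no value below has a spread between replicates and no difference was tested.

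All cells were of this one untreated line, with no second genotype, time or treatment, and target and cross-linking changed together, so that the effect of one cannot be told apart from that of the other. The line was checked with marker genes, as far as binding can show it, since no expression was measured. An SMC1 summit lay within 1 kb of a transcript start at 10 of 10 B cell markers, 4 of 10 T cell markers and 3 of 8 myeloid markers, beside 62.6% of all protein-coding genes. For CTCF the counts were 8, 4 and 1, beside 46.7%.

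The loop lists go against their labels. MAPS, the loop caller used, starts from bins that hold a peak of the same experiment, but 3745 of the 80487 loops labelled CTCF had no CTCF peak at either anchor, while none of them lacked an SMC1 peak. In the list labelled SMC1, 11 of 28012 loops had no SMC1 peak and none lacked a CTCF peak. The study itself reports 80487 loops for SMC1 and 28012 for CTCF in this line, which are exactly the totals of the lists with the other label. The lists are named by their labels below, and exchanging them gives 101 loops to SMC1 and 52 to CTCF at these genes, with loops at 10 genes for SMC1 and 7 for CTCF. Loops of the first list hold 788356 read pairs together and those of the second 2666327. These sums grow with the number of loops and do not measure the depth of the libraries.

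CTCF binds a directional DNA motif, and cohesin extrudes chromatin until it meets bound CTCF, most often at motifs that point towards each other. Loops of this kind can bring enhancers and promoters together or keep them apart. In B cells, CD40 and antigen receptor signals act through NF-kappaB to raise surface molecules such as CD80, CD86, ICAM1 and CD83, and cells transformed by Epstein-Barr virus carry many of the same molecules, FCER2 (CD23) among them.

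Sequences are shown from the strongest CTCF peak of each gene, the one with the highest -log10 q-value in its window. They are the best motif matches in these peaks and not the places of highest signal. Their distance from the summit ran from 9 bp at CD86 to 1266 bp at CD70. A 19 bp motif was learned from the strongest CTCF summits of the odd-numbered autosomes, and the best match in each peak is printed with 10 bp on either side, in capitals for the match, read on the strand of the motif in hg38. All 10 peaks held a match of at least 10 bits, from 11 bits at CD40 to 18.0 bits at SLAMF1. Of the strongest CTCF peaks of all protein-coding genes, 86.3% did so. Over peaks of any strength 65.3% of the CTCF peaks at the 10 genes held such a match, beside 58.4% at all protein-coding genes. The summits that the motif was learned from come from chromosomes that hold 7 of the 10 genes.
CD80 (chr3:119600814-119600852, plus strand): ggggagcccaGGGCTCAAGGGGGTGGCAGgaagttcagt
CD86 (chr3:122092670-122092708, minus strand): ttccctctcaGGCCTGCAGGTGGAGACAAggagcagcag
CD40 (chr20:46099724-46099762, plus strand): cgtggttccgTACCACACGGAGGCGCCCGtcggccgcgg
CD58 (chr1:116596431-116596469, minus strand): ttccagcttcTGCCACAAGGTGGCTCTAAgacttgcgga
ICAM1 (chr19:10250269-10250307, minus strand): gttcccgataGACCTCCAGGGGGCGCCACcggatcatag
SLAMF1 (chr1:160675740-160675778, plus strand): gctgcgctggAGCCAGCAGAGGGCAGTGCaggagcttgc
FCER2 (chr19:7680731-7680769, minus strand): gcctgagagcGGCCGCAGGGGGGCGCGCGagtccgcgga
CD70 (chr19:6632194-6632232, plus strand): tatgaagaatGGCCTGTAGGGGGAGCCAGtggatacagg
CD27 (chr12:6423701-6423739, plus strand): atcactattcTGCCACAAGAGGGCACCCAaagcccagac
CD83 (chr6:14144782-14144820, minus strand): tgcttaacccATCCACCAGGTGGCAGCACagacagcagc

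All 10 of 10 genes had an SMC1 summit within 1 kb of a transcript start, beside 62.6% of all protein-coding genes. A CTCF summit lay there at 8 of 10, beside 46.7%, and summits of both targets at 8 of 10, beside 44.2%, counting all starts of a gene together. At 1 and the same start both were found at 6 of 10 genes, beside 42.9%, since the summits of CD86 and of CD58 lay at different starts. The 2 genes without a CTCF summit at a start were ICAM1 and SLAMF1. The counts of 10 and 8 became 8 and 6 when only the start of the gene record was used.

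**Figure D1:**
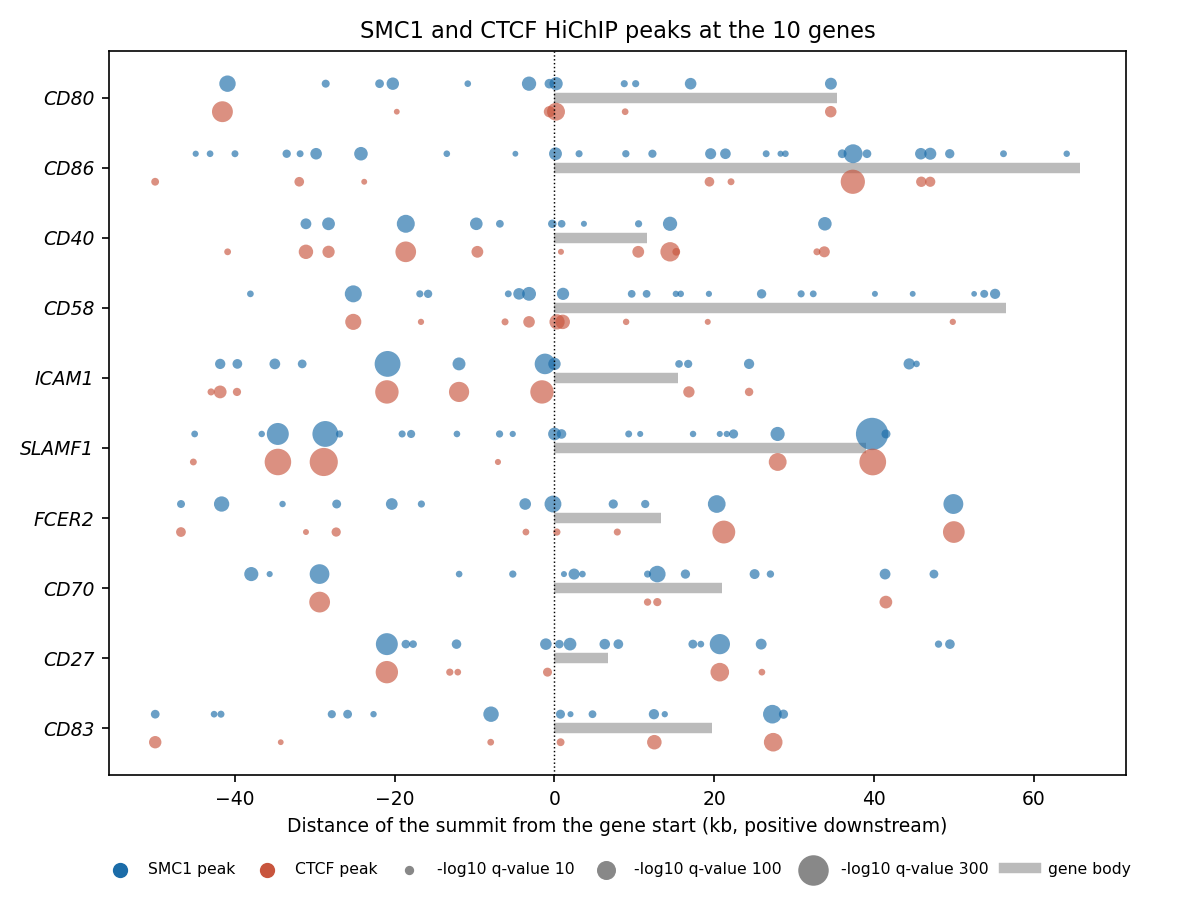
Distance of each peak summit from the gene start, in kb and positive in the direction of transcription, for SMC1 (blue, upper row) and CTCF (red, lower row) at the 10 genes. The area of a point grows with the -log10 q-value and grey bars are gene bodies. The strongest SMC1 peaks lie 18.6 to 49.9 kb from the dotted line of the gene start, and 63 of 72 CTCF peaks overlap an SMC1 peak.

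SMC1 had more peaks than CTCF at 9 of 10 genes and as many at CD40, with 11 each. The SMC1 list is the longer one, and 63.9% of all protein-coding genes had more SMC1 than CTCF peaks. The number of SMC1 peaks ran from 11 at CD40 to 26 at CD86, with a median of 14.5 beside 7.0 for all protein-coding genes. CTCF peaks ran from 4 at CD70 to 11 at CD40, with a median of 7.0 beside 5.0. The median gene length was 20.3 kb here and 27.5 kb over all genes.

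Of the 72 CTCF peaks, 63 overlapped an SMC1 peak, which is 87.5% (95% Wilson interval 77.9 to 93.3) beside 76.3% for the CTCF peaks of all protein-coding genes. In the other direction 62 of 160 SMC1 peaks overlapped a CTCF peak, which is 38.8% (31.5 to 46.5) beside 47.0%. The share of SMC1 peaks rose to 48.8% when the SMC1 list was reduced to its 62869 strongest peaks, the size of the CTCF list. The 47.0% is from the full SMC1 list. No share over all protein-coding genes was computed for the reduced list, so 48.8% cannot be compared with it. These intervals cover counting error only, here and below.

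SMC1 peaks with a CTCF partner were the stronger ones at these genes. Their median -log10 q-value was 43.3 (rank interval 30.7 to 60.5, n = 62), against 11.7 (9.08 to 16.0, n = 98) for SMC1 peaks without CTCF. The same medians over all protein-coding genes were 34.8 and 7.54. The strongest SMC1 peak without CTCF, with a -log10 q-value of 80.1, lay 41.6 kb upstream of FCER2 inside CD209. Of the 160 SMC1 peaks, 50 lay in introns of these genes, which is 31.2% beside 29.4% over all protein-coding genes, and 13 of the 50 overlapped CTCF, 26% beside 41.2%. Another 15 lay within 1 kb of a start, 9.38% beside 13.2%, and 6 of the 15 overlapped CTCF, 40% beside 54.0%.

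**Figure D2:**
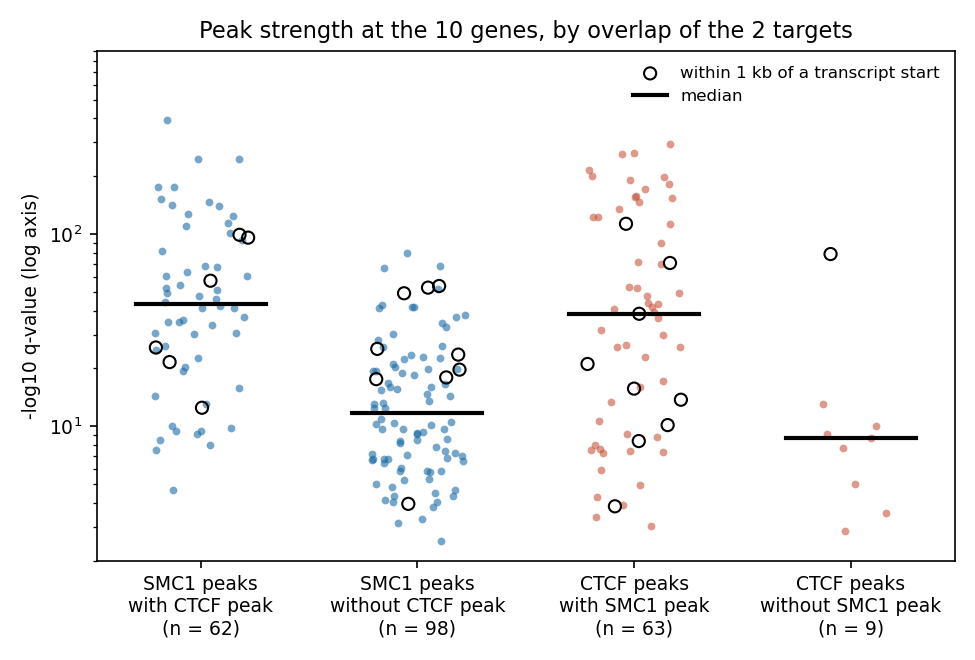
The -log10 q-value of each peak at the 10 genes on a log axis, split by target and by overlap with a peak of the other target. Bars are medians and open circles are peaks within 1 kb of a transcript start. SMC1 peaks with a CTCF peak have a median of 43.3 and those without one of 11.7.

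The strongest SMC1 peak lay within 1 kb of a transcript start at 0 of 10 genes, beside 15.8% of the 18468 protein-coding genes with an SMC1 peak. At 8 of 10 genes it overlapped the strongest CTCF peak, beside 66.7% of the 18125 protein-coding genes with peaks of both targets. The exceptions to the overlap were SLAMF1 and FCER2. The strongest SMC1 peaks lay 18.6 to 49.9 kb from the gene start.

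Loops were present at 7 of 10 genes in the list labelled SMC1, beside 35.1% of all protein-coding genes, and at 10 of 10 in the list labelled CTCF, beside 59.0%. The 3 genes with loops in the list labelled CTCF only were CD80, CD58 and CD83. Numbers of loops spread widely, from 0 to 17 (median 3.5) in the first list and from 2 to 27 (median 8.5) in the second. Many of these loops join neighbouring bins: the 52 loops form 22 groups and the 101 loops 42 groups when loops whose anchors touch or coincide at both ends are joined. Such loops are not independent. The intervals of loop shares and loop medians below treat them as if they were, and are too narrow.

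**Figure D3:**
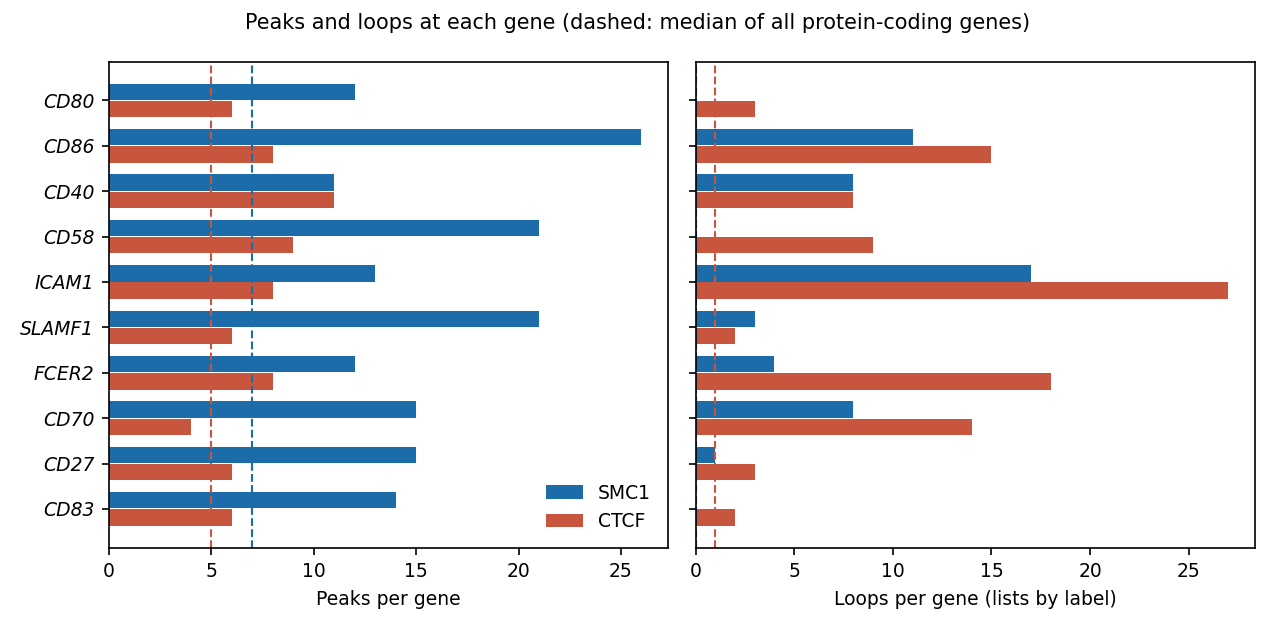
Number of peaks (left) and loops (right) at each gene for SMC1 (blue) and CTCF (red), with loop lists by label. Dashed lines are the medians of all protein-coding genes, which for loops of the list labelled SMC1 is 0. CD86 has the most SMC1 peaks, 26, and ICAM1 the most loops in both lists, 17 and 27.

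CD80 and CD86 are the ligands of CD28 and CTLA4 on T cells. CD80 (chr3:119524293-119559614, minus strand) had 12 SMC1 and 6 CTCF peaks, and each of its 6 CTCF peaks overlapped an SMC1 peak. A pair of each target flanked the start, with CTCF summits 199 bp inside the gene and 624 bp upstream at -log10 q-values of 113 and 38.5, and SMC1 summits 212 bp inside and 630 bp upstream at 57.2 and 25.7. The strongest peak of both targets lay about 41 kb upstream inside PLA1A, with -log10 q-values of 93.5 for SMC1 and 157 for CTCF.

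No loop of the list labelled SMC1 reached the CD80 starts, and the nearest anchor of that list was 40387 bp away. The list labelled CTCF held 3 loops. Of these, chr3:119560001-119565000 to chr3:119595001-119600000 had 154 read pairs (exact Poisson interval 131 to 180) where 62.9 were expected, a ratio of 2.45 (2.08 to 2.87), and its far anchor lay near the start of PLA1A. The other loops had 38 read pairs each and reached the COX17 start over 115 and 120 kb. None of the 3 far anchors held a CTCF peak, and each held an SMC1 peak.

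CD86 (chr3:122055362-122121139, plus strand) had the most SMC1 peaks of the set, 26, which is more than 98.5% of protein-coding genes have, and 8 CTCF peaks. It is also the longest gene of the set at 65.8 kb. Only SMC1 was found at the first start, 134 bp inside the gene and with a -log10 q-value of 53.7, and the nearest CTCF summit was 19397 bp away. The strongest peak of both targets lay in an intron 37.3 kb downstream, where the CTCF summit had a fold enrichment of 14.3 and a -log10 q-value of 216, and the SMC1 summit 5.85 and 127. At the later starts, a CTCF summit of 8.38 lay 385 bp from that at position 122077844 and an SMC1 summit of 19.7 lay 231 bp from that at 122091601.

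The CTCF summit of that intronic site lay 1097 bp from the start at position 122091601, and the loops of CD86 lay at its later starts. None of the 11 loops labelled SMC1 or the 15 labelled CTCF lay at the first start. In the list labelled SMC1, 10 had an anchor at the start at 122091601, and in the list labelled CTCF 7 did so and 8 lay at the starts around 122077844. The loop with the most read pairs in the list labelled CTCF joined chr3:121995001-122000000 to chr3:122075001-122080000 with 126 read pairs (105 to 150) against 48.1 expected, a ratio of 2.62 (2.18 to 3.12). In the list labelled SMC1 the same bins had 28 read pairs and a ratio of 5.65. The best supported loop of that list stayed within CD86, chr3:122075001-122080000 to chr3:122090001-122095000, with 44 read pairs (32.0 to 59.1) against 15.2 expected, a ratio of 2.89 (2.10 to 3.88).

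The genes at the far anchors were ILDR1, CASR and POLQ. ILDR1 starts were within 5 kb of the far anchor in 8 loops labelled CTCF and 2 labelled SMC1, the CASR start in 1 loop of each list, 202 kb downstream, and POLQ in 3 loops labelled CTCF, upstream and with spans of 535 to 550 kb. POLQ encodes a DNA polymerase and CASR the calcium-sensing receptor.

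CD40 is the receptor through which helper T cells activate B cells. The gene (chr20:46118271-46129863, plus strand) had 11 SMC1 and 11 CTCF peaks, of which 8 overlapped in each direction. Its start region was weakly bound by CTCF. The SMC1 peaks there lay around 13.9, the median -log10 q-value of SMC1 peaks at all protein-coding genes. SMC1 summits lay 267 bp upstream and 906 bp inside the gene with -log10 q-values of 17.6 and 12.5, and the one CTCF summit there, 819 bp inside, had 3.84. A weak SMC1 peak of 3.95 lay 275 bp from a later start. The strongest peaks of both targets coincided 18.6 kb upstream, with -log10 q-values of 114 for SMC1 and 154 for CTCF.

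CD40 had 8 loops in each list, and each of the 16 was found in the other list within 15 kb. Most lay at the later starts of the gene, where non-coding transcripts start 7393 bp and 7432 bp downstream: 7 loops labelled SMC1 and 8 labelled CTCF lay there, against 2 and 1 at the gene start. The loop with the most read pairs joined the strong upstream site to the region of a CTCF peak with a -log10 q-value of 135 beyond the 3' end of the gene, chr20:46095001-46100000 to chr20:46130001-46135000. It had 44 read pairs (32.0 to 59.1) in the list labelled SMC1, a ratio of 2.15 (1.56 to 2.89), and 69 (53.7 to 87.3) in the list labelled CTCF, a ratio of 3.55 (2.76 to 4.49). Longer loops reached the starts of SLC12A5, a chloride transporter, in both lists, of MMP9, a matrix metalloproteinase, in the list labelled SMC1, and of ELMO2 in both, over 105 to 280 kb.

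CD58 and ICAM1 are adhesion ligands, of CD2 and of the integrin LFA-1. CD58 (chr1:116514534-116571039, minus strand) had 21 SMC1 and 9 CTCF peaks. Its main start was bound by CTCF. CTCF summits lay 275 bp and 982 bp from the nearest start with -log10 q-values of 78.8 and 70.8, and the nearest SMC1 summit, at 47.6, lay 1024 bp away, just outside the limit of 1 kb. Its SMC1 promoter peak is at another start, 26.4 kb inside the gene, with a -log10 q-value of 23.6. The strongest peaks of both targets lay 25.2 kb upstream inside IGSF3, at 101 for SMC1 and 89.6 for CTCF. The CTCF peak 275 bp from the start was the strongest of the 9 CTCF peaks that overlapped no SMC1 peak.

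Its 9 loops were all in the list labelled CTCF, 8 upstream and 1 downstream, and none was matched in the other list. The loop with the most read pairs, chr1:116575001-116580000 to chr1:116670001-116675000, had 67 (51.9 to 85.1) against 9.59 expected, a ratio of 6.98 (5.41 to 8.87). Its far anchor lay within 5 kb of a start of IGSF3, the neighbouring gene, and another pair of loops ended at TTF2 over spans of 480 and 485 kb, with 16 and 12 read pairs. CTCF motifs in CTCF peaks at both anchors pointed towards each other in 4 of the 9 loops and in the same direction in 2.

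ICAM1 (chr19:10271093-10286615, plus strand) stood at the top of the set for loops, with 17 in the list labelled SMC1, more than 98.2% of protein-coding genes have, and 27 in the list labelled CTCF, also more than 98.2%. Of these, 12 and 22 lay at the gene start. At the later starts of non-coding transcripts, 11165 and 12189 bp inside the gene, lay 6 and 7, some of them counted at both places. Several of the latter use the bin chr19:10285001-10290000, whose middle lies 496 bp from the ICAM4 start. An SMC1 summit lay 4 bp from the gene start with a -log10 q-value of 49.2. The nearest CTCF summit was 1558 bp upstream, with a -log10 q-value of 199 and a fold enrichment of 8.60, beside an SMC1 peak of 153. The strongest peaks of both targets lay 20.9 and 21.0 kb upstream between genes, at 246 for SMC1 and 201 for CTCF.

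The best supported loop of all 10 genes was the same pair of bins in both lists. It joined chr19:10265001-10270000, just upstream of ICAM1, to chr19:10385001-10390000, 116 kb downstream of the start, with starts of TYK2 and CDC37 within 5 kb. TYK2 is a kinase of cytokine receptors and CDC37 a co-chaperone of kinases. It had 211 read pairs (183 to 241) against 17 expected in the list labelled SMC1, a ratio of 12.4 (10.8 to 14.2), and 330 (295 to 368) against 19.1 in the list labelled CTCF, a ratio of 17.3 (15.5 to 19.3). The best motif matches in the CTCF peaks of the anchors pointed towards each other, with 12.2 bits on the plus strand at the ICAM1 side and 16.8 bits on the minus strand at the far side.
ICAM1 side (chr19:10269599-10269637, plus strand): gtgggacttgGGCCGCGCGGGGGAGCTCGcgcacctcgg
TYK2 and CDC37 side (chr19:10389039-10389077, minus strand): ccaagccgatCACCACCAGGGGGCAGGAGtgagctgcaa

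The far anchor lay at TYK2 or CDC37 in 16 of the 17 ICAM1 loops labelled SMC1 and in 17 of the 27 labelled CTCF. All 17 loops labelled SMC1 ran downstream and 26 of 27 labelled CTCF did so, the exception being a loop to OLFM2 over 335 kb with 12 read pairs. ICAM3, a further ligand of LFA-1, lay at the far anchor of 6 loops labelled CTCF and 1 labelled SMC1. RAVER1 lay at the far anchor of 4 loops labelled CTCF and 1 labelled SMC1, PDE4A at 1 labelled SMC1, and FDX2 and ZGLP1 at 1 labelled CTCF. Loops to ICAM5 and to the later starts of ICAM1 itself, the latter with the middle of its far anchor 496 bp from the ICAM4 start, were in the list labelled CTCF only, with 54 read pairs over 25.6 expected and 179 over 84.0. In all, 15 of the loops had exactly the same bins in both lists.

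**Figure D4:**
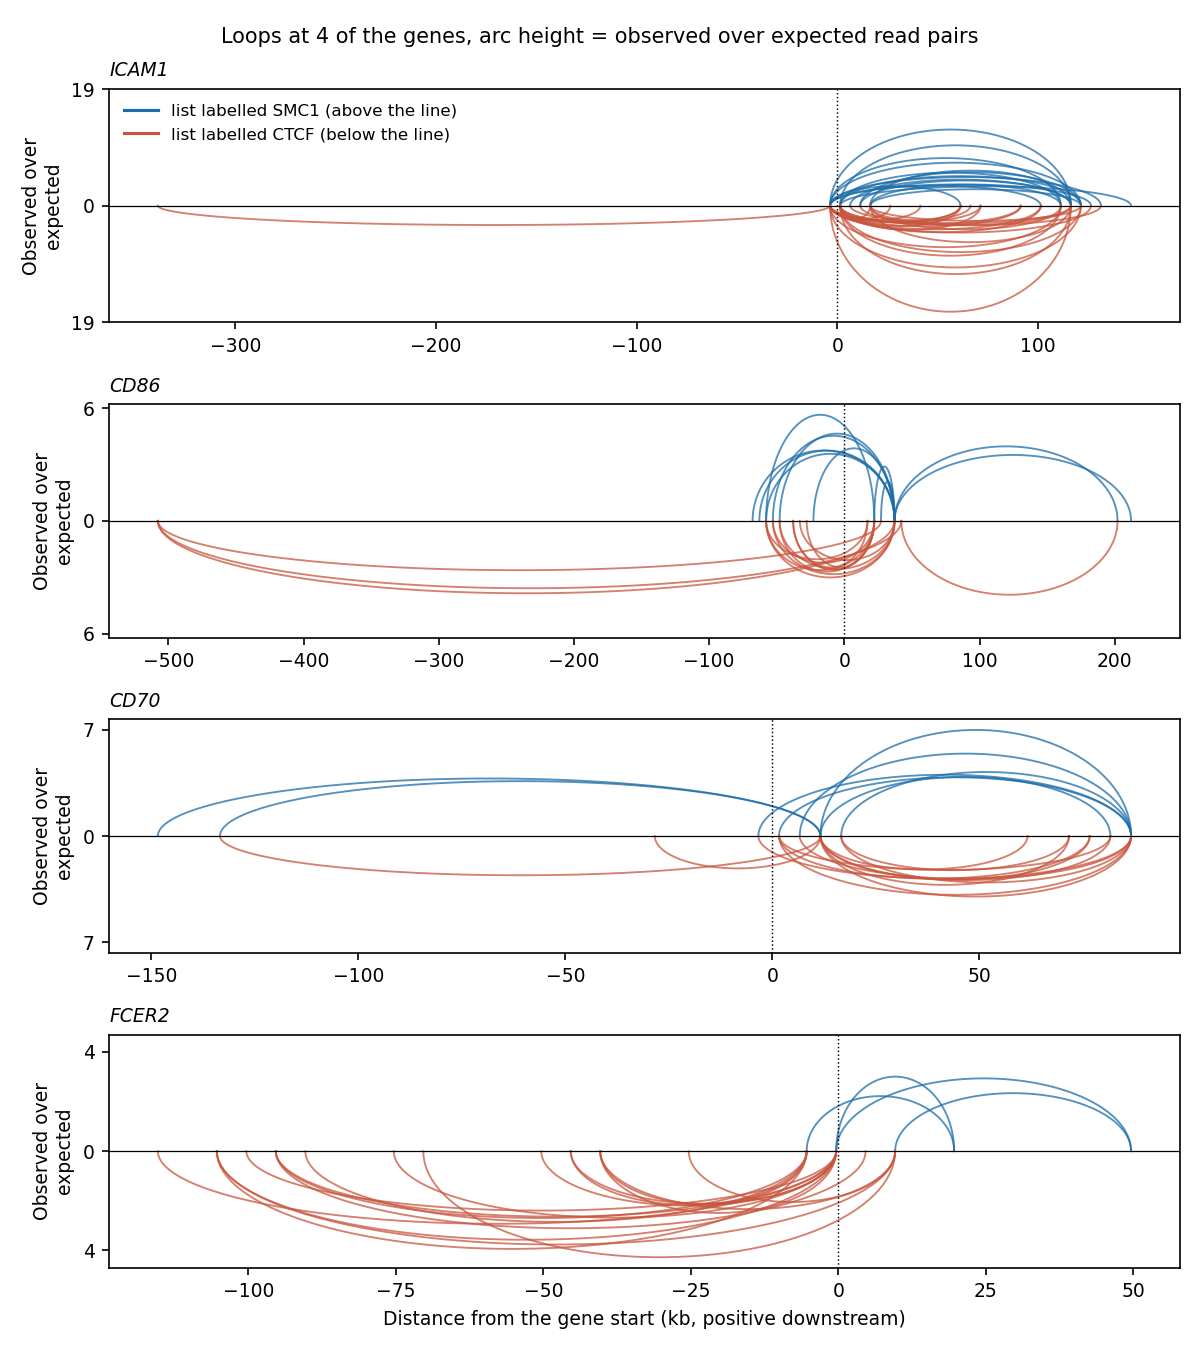
Loops of ICAM1, CD86, CD70 and FCER2 by distance from the gene start, in kb and positive in the direction of transcription, with the list labelled SMC1 above the line and the list labelled CTCF below. The height of an arc is the ratio of observed to expected read pairs. ICAM1 arcs reach 12.4 and 17.3, and FCER2 arcs run downstream in the upper list and upstream in the lower one.

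The ICAM1 promoter is shown because ICAM1 had the most loops. An SMC1 summit lay in it and no CTCF peak overlapped it, as was also so for the SLAMF1 promoter and 1 of the FCER2 promoters. The 300 bases from RefSeq (GRCh38.p14, chr19:10270870-10271169, plus strand) run from 250 before the RefSeq start to 50 after it, with GC boxes (GGGCGG) and TATA boxes (TATAAA), on either strand, in capitals. GC boxes were found in 45.0% and TATA boxes in 11.5% of all 35116 RefSeq promoters.
ICAM1 promoter: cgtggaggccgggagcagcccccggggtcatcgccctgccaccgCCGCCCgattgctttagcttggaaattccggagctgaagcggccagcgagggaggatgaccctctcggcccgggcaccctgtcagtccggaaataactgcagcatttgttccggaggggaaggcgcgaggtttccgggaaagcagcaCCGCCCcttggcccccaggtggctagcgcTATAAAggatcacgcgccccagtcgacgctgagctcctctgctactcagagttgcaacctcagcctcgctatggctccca

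SLAMF1 is a receptor that binds itself on neighbouring cells and recruits the adaptor SH2D1A (SAP). The gene (chr1:160608106-160647044, minus strand) held the strongest SMC1 peak of the set, with a -log10 q-value of 391, 39.7 kb downstream of the start and beyond the gene's 3' end. CTCF had a peak of 265 at the same place. The strongest CTCF peak, at 294, lay 28.9 kb upstream beside an SMC1 peak of 247, and a further pair lay 34.6 kb upstream inside CD48, with 176 for SMC1 and 260 for CTCF. The start itself had SMC1 summits 11 bp and 884 bp inside the gene, at 52.7 and 25.3, and no CTCF summit within 7065 bp.

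SLAMF1 had 3 loops labelled SMC1 and 2 labelled CTCF, all short, of 20 to 30 kb, and all ending upstream with no promoter of another gene at the far anchor. The loop with the most read pairs had 54 (40.6 to 70.5) over 16.6 expected in the list labelled SMC1, a ratio of 3.25 (2.44 to 4.24), and 107 (87.7 to 129) over 45.4 in the list labelled CTCF, a ratio of 2.36 (1.93 to 2.85). The first of these ended at the bin of the strongest CTCF peak and the second in the bin before it, which holds no CTCF peak.

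FCER2 is CD23, the low-affinity IgE receptor of B cells. The gene (chr19:7688758-7702146, minus strand) had 12 SMC1 and 8 CTCF peaks. Its start had an SMC1 summit 182 bp upstream at a -log10 q-value of 99.2 and a CTCF summit 305 bp inside at 10.2. The SMC1 peak at this start was the strongest SMC1 promoter peak of the 10 genes. The strongest SMC1 peak of the window, 142, lay 49.9 kb downstream, and the strongest CTCF peak, 191, 21.2 kb downstream at TRAPPC5.

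The FCER2 loops assigned from the lists ran in opposite directions. All 4 loops labelled SMC1 ran downstream, to STXBP2 and to TRAPPC5 and MCEMP1, and all 18 labelled CTCF ran upstream, to the CLEC4G, CD209 and CLEC4M genes, which encode C-type lectins, and beyond. No bin pair was shared, but 1 of the 4 and 3 of the 18 had a counterpart in the other list within 15 kb at both anchors. The strongest downstream loop had 107 read pairs (87.7 to 129) over 35.6 expected, a ratio of 3.0 (2.46 to 3.63), and the strongest upstream loop 85 (67.9 to 105) over 34.1, a ratio of 2.49 (1.99 to 3.08). The far anchors of the 4 downstream loops all held a CTCF peak, and so did 11 of the 18 upstream ones.

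CD70 and CD27 are a ligand and its receptor of the TNF and TNF receptor families. CD70 (chr19:6583183-6604103, minus strand) had 15 SMC1 peaks and the fewest CTCF peaks, 4, each of which overlapped an SMC1 peak. Its gene record begins 12953 bp upstream of the canonical transcript. At the canonical start both targets had a summit 81 bp away, with -log10 q-values of 95.9 for SMC1 and 15.7 for CTCF, whereas no summit lay within 1 kb of the start of the gene record. The strongest peaks lay 29.4 kb upstream of the gene record, at 139 and 156.

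The strongest CD70 loop was again the same in both lists. It joined the canonical start, chr19:6590001-6595000, to chr19:6515001-6520000 with 101 read pairs (82.3 to 123) over 14.4 expected in the list labelled SMC1, a ratio of 7.0 (5.70 to 8.50), and 190 (164 to 219) over 47.6 in the list labelled CTCF, a ratio of 4.0 (3.45 to 4.61). The far anchor held a CTCF peak with a -log10 q-value of 393 and its middle lay 13526 bp from the nearest protein-coding start, that of TNFSF9, which encodes the ligand of TNFRSF9. Loops with 84 and 90 read pairs in the list labelled CTCF ended at TNFSF9 itself. In the other direction, C3, GPR108 and TRIP10 lay at the far anchor of 1 loop in each list, upstream over 145 kb. A further loop labelled SMC1, with 20 read pairs over 160 kb, reached SH2D3A and TRIP10.

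CD27 (chr12:6444955-6451718, plus strand) is the shortest gene of the set at 6.76 kb. It had 15 SMC1 and 6 CTCF peaks, with an SMC1 summit 616 bp inside the gene at a -log10 q-value of 18.0 and a CTCF summit 865 bp upstream at 21.1. The RefSeq start, at position 6443892, lies further upstream than the GENCODE start used here. Its promoter entry, chr12:6443642-6443941, held another SMC1 summit and was overlapped by a CTCF peak. The strongest peaks of both targets had their summit at the same base 21.0 kb upstream, at 175 for SMC1 and 182 for CTCF. Its loops were short, 10 to 25 kb, and ended between the gene and this site. The list labelled SMC1 held 1, with 34 read pairs (23.5 to 47.5) over 13.8 expected, and the list labelled CTCF 3, the strongest with 256 (226 to 289) over 94.1, a ratio of 2.72 (2.40 to 3.07). No promoter of another gene lay at a far anchor.

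CD83 is a surface marker of activated B cells and mature dendritic cells. The gene (chr6:14117256-14136918, plus strand) had 14 SMC1 and 6 CTCF peaks. At its start both targets had a summit in the first coding exon, 757 and 774 bp inside the gene, with -log10 q-values of 21.6 and 13.8. The strongest peaks lay 27.3 kb downstream, at 124 for SMC1 and 123 for CTCF, and 5 SMC1 peaks without CTCF lay upstream of the gene with -log10 q-values of 5.82 to 19.9. The 2 loops, in the list labelled CTCF only, ended among these upstream peaks and had 28 (18.6 to 40.5) and 32 (21.9 to 45.2) read pairs, with ratios of 3.31 (2.20 to 4.79) and 2.34 (1.60 to 3.30). Neither had a CTCF peak at an anchor.

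**Figure D5:**
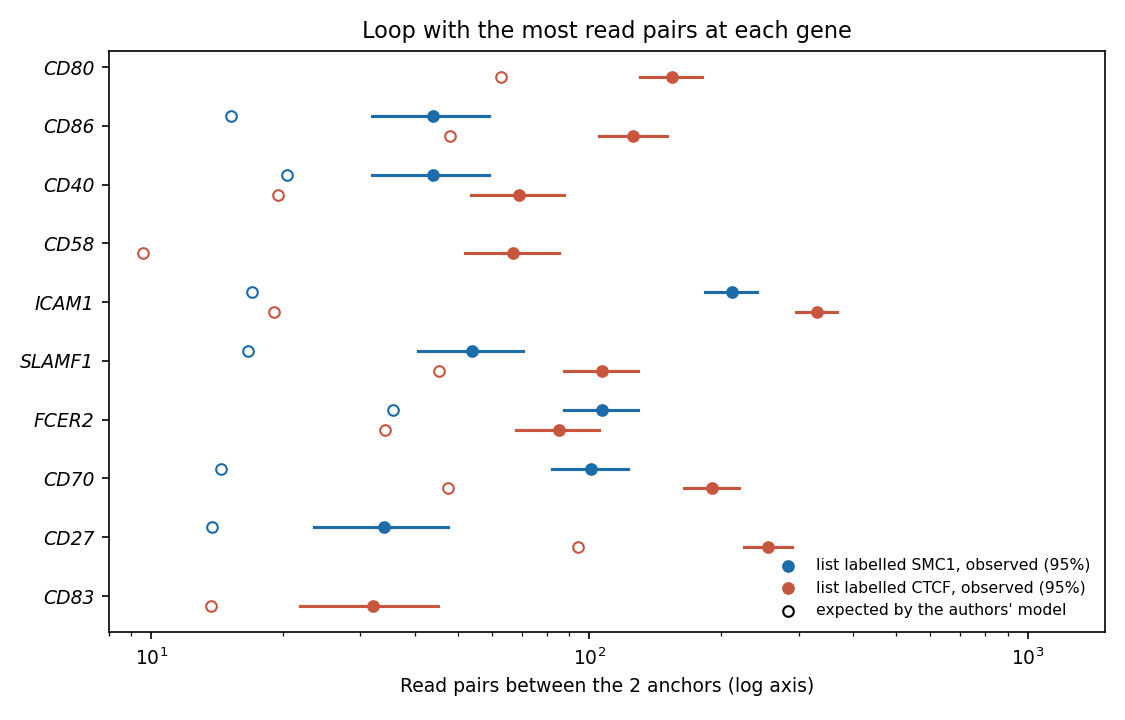
Observed read pairs (filled, with the 95% exact Poisson interval) and expected read pairs (open) of the loop with the most read pairs at each gene, on a log axis, for the lists labelled SMC1 (blue) and CTCF (red). CD80, CD58 and CD83 have no loop in the list labelled SMC1. ICAM1 has the most observed read pairs, 211 and 330.

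RefSeq promoters were matched for 8 of 10 genes, with 11 entries. No entry was matched for CD40 and CD70. A strict form of the kappaB motif, to which NF-kappaB binds, was found in 11.3% of all RefSeq promoters. It was found in 3 of these 11: 1 of CD83, 1 of CD86 and 1 of FCER2. Every match in these entries begins with GGG and ends with CC, so a site that departs from these letters is missed. The ICAM1 entry had no such match, although its sequence above holds tggaaattcc, which differs in the first letter. An entry without a match is therefore not shown to lack a site of NF-kappaB. The CD83 and CD86 entries are shown because a peak of both targets overlaps them, with kappaB matches on either strand, some of which overlap one another, in capitals. The CD83 entry is chr6:14117522-14117821 and the CD86 entry chr3:122077534-122077833, both on the plus strand of GRCh38.p14. The match is a description of the letters and not a measured site.
CD83 promoter: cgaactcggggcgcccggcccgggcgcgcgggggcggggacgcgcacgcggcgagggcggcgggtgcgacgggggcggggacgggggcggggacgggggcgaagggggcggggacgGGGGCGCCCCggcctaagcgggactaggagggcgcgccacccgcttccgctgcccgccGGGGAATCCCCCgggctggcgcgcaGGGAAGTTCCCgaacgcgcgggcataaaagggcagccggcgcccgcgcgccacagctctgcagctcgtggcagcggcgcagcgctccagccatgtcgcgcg
CD86 promoter: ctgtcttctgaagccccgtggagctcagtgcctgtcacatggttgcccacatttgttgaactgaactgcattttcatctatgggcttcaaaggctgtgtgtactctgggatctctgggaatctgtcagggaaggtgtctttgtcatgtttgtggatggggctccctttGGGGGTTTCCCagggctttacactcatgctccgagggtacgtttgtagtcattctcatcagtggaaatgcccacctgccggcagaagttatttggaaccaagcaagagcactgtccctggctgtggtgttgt

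Across the genes, the median ratio of observed to expected read pairs was 3.68 (rank interval 3.26 to 4.04, n = 52) in the list labelled SMC1, beside 3.85 for the loops at all protein-coding genes. It was 2.84 (2.69 to 3.16, n = 101) in the list labelled CTCF, beside 3.87. The loops of the latter had more read pairs, a median of 40 beside 24, and were shorter, 80.0 kb beside 115 kb. Of the loops labelled SMC1, 47 of 52 were found in the other list within 15 kb at both anchors, which is 90.4% (79.4 to 95.8) beside 91.5% for all protein-coding genes. For the list labelled CTCF the share was 61 of 101, or 60.4% (50.6 to 69.4), beside 56.1%.

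Far anchors were often near the start of another protein-coding gene, in 61.5% (48.0 to 73.5) of the loops labelled SMC1 beside 37.1%, and in 63.4% (53.6 to 72.1) of those labelled CTCF beside 29.9%. These shares rest in part on ICAM1, and without it were 42.9% and 50%. Their intervals count loops in neighbouring bins as independent and are too narrow to set against the shares of all protein-coding genes. In the list labelled SMC1, 18 genes lay at far anchors, of which 1, ICAM3, was also on the list of related genes described next. In the list labelled CTCF there were 26, of which 3 were on it, ICAM3, ICAM5 and TNFSF9. Loops with both anchors at starts of the same gene were given no partner in these shares and counts. This leaves out ICAM4, also on the list of related genes, whose start lay in the far anchor of 1 such ICAM1 loop.

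CTCF motif matches of at least 10 bits within 50 bp of the summit were found at 25.0% (16.4 to 36.1) of the CTCF peaks and 12.5% (8.24 to 18.5) of the SMC1 peaks, beside 19.3% and 12.8% for all protein-coding genes. Anywhere in the peak the shares were 65.3% and 45.6%, beside 58.4% and 50%. Where both anchors of a loop held a match in a CTCF peak, the matches pointed towards each other in 9 of 20 loops labelled SMC1 and 14 of 32 labelled CTCF, which is 45.0% (25.8 to 65.8) and 43.8% (28.2 to 60.7), beside 57.0% and 58.3%. ICAM1, whose loops lie in neighbouring bins, gave 6 of the 9 and 7 of the 14. Without it the counts were 3 of 12 and 7 of 20, which is 25.0% (8.89 to 53.2) and 35% (18.1 to 56.7). With all genes, and matches counted anywhere in both anchors, 14 of 50 and 25 of 91 loops had matches pointing towards each other. These shares were 28.0% (17.5 to 41.7) and 27.5% (19.4 to 37.4), beside 43.5% and 42.5% for all protein-coding genes.

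A list of 40 further genes of costimulation and adhesion, such as CD28, the SLAM family, the TRAF adaptors and the integrin chains of LFA-1, gives these counts a wider frame. The list is not separate from the 10 genes. Loops of ICAM1 also count at ICAM3, ICAM4 and ICAM5, loops of CD70 at TNFSF9, and peaks in the SLAMF1 window lie inside CD48. Of them 27 had an SMC1 summit and 21 a CTCF summit within 1 kb of a start, beside 62.6% and 46.7% of all protein-coding genes. Loops were present at 23 of the 40 in the list labelled SMC1 and at 30 in that labelled CTCF, beside 35.1% and 59.0%. ICAM2, another ligand of LFA-1, had the most loops, 22 and 24. It was followed by CD84 (10), SLAMF7 (8) and TRAF6 (8) in the list labelled SMC1, and by TRAF5 (22) and CD274 (18), the gene of PD-L1, in the list labelled CTCF. The medians of this list were 2.0 and 5.0 loops, against 3.5 and 8.5 at the 10 genes.

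Values at the edges of the rules show how the limits act. A CD86 SMC1 peak with a -log10 q-value of 58.9 lay 230 bp outside its window, and the CTCF peak nearest to the CD80 window, 1001 bp outside, had 6.06. A CD27 loop with 201 read pairs had its anchor 4649 bp from a start, within the limit, and a CD80 loop with 15 read pairs had its anchor at 5387 bp, beyond it.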

How the data were processed

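HiChIP was read from the pooled peak list and loop list of each target (4 samples, 2 biological replicates each). The authors used BWA-MEM 0.7.17 and hg38, kept alignments of MapQ over 30 once each, and ran MACS3 3.0.1 for peaks (q-value 0.01, extension size 200 bp, no model, no input). The deposited peaks hold a fold enrichment, which is a ratio over the caller's estimated background, with a −log10 q-value. The deposited loops, called by MAPS on 5 kb bins, hold the counts of read pairs and expected counts. Bcl2fastq 2.17 is named in the submitters' processing notes. PCR reads without molecular identifiers are not independent molecules, so intervals cover counting error only.

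Genes were taken from GENCODE release 44 and computed with Python 3.11.15, pandas 2.3.3, numpy 2.4.6, scipy 1.17.1, pysam 0.24.0 and matplotlib 3.10.9, tested on simulated data. Overlap needed 1 bp. Loops were matched between lists with 15 kb tolerance. Intervals are 95% (Wilson for shares, exact Poisson for read pairs, ranks for medians). Those of loop shares and loop medians take loops in neighbouring bins as independent and are too narrow. The CTCF motif (19 bp) was learned by expectation maximization from 3000 summits and needed 10 bits within 50 bp of the summit. Motif matches anywhere in a peak, their orientation in CTCF peaks and the reduced SMC1 list were chosen after seeing the data. Every gene was named with its strongest peaks, promoter peaks and top loop in each list, and partners with a gene symbol where a start lay within 5 kb. The genes and lists were chosen with earlier results of these data known.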

Additional observations from a re-analysis of the deposited data

How the results depend on the processing

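Exchanging the loop lists turned the order of the targets, both in number of loops and in median ratio, as given below. Of 80 alternatives to 17 results, 47 stayed within the range of the reported value and 33 moved. Genes with a promoter peak stayed within 1.5 times, 8 to 10 for SMC1 and 6 to 9 for CTCF. With windows of 20 and 100 kb there were 102 and 259 SMC1 peaks and 40 and 127 CTCF peaks. SMC1 peaks overlapping CTCF fell to 26.9% when CTCF had to cover at least 0.5 of the SMC1 peak and rose to 48.8% with the reduced SMC1 list. Loops numbered 30 and 51 (lists labelled SMC1 and CTCF) with the start inside the anchor, 24 and 60 at the start of the gene record only, and 101 and 52 with the lists exchanged, which also exchanges the median ratios, 2.84 and 3.68. Loops found in both lists were 61.5% and 31.7% without tolerance and 73.1% and 46.5% with 5 kb. Far anchors with another start were 34.6% and 34.7% with the start inside the anchor, 75.0% and 79.2% with all annotated genes, and 42.9% and 50% without ICAM1, which also brought motifs pointing towards each other to 25.0% of loops labelled SMC1. Motif shares of SMC1 and CTCF peaks were 34.4% and 50% at 7 bits, 1.88% and 8.33% at 13 bits, 26.2% and 47.2% within 100 bp, and 45.6% and 65.3% anywhere in the peak. The window around the canonical start, which left 160 and 72 peaks, the reduced list, the omission of ICAM1 and the search anywhere in the peak were added after seeing the data. No replicate could be left out, since each list is pooled. No paired analysis was possible because the replicates were pooled before calling. Low counts limit single loops, which have as few as 12 read pairs.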

Other observations

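Loops and peaks at the marker genes varied within each list. POU2AF1, which encodes a B cell transcriptional coactivator, had 20 SMC1 and 11 CTCF peaks, with 21 loops by the SMC1 label and 26 by the CTCF label. PAX5, a transcription factor of B cell identity, had 43 SMC1 and 19 CTCF peaks, with 5 and 12 loops. CD79A, a chain of the B cell receptor complex, had 9 and 17 loops, and CR2, the complement receptor bound by Epstein-Barr virus, 0 and 4. MS4A1, which encodes CD20, had 0 and 10 loops, and FCRLA had 0 in either list. Among the T cell markers CD247 had 7 and 21 loops, and among the myeloid markers CD14 had 2 and 16. The medians over the 10 B cell markers were 4.0 and 10.5 loops, those over the 10 T cell markers 1.0 and 3.0, and those over the 8 myeloid markers 0.0 and 1.5. These are descriptions of 1 pooled list for each target, without a test.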
